A study of Mus musculus with 6 samples.

Results

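The genes described here encode the CD3 chains of the T cell receptor complex (Cd3e, Cd3d, Cd3g and Cd247), the CD8 coreceptor (Cd8a and Cd8b1), the CD4 coreceptor (Cd4) and 3 further T cell surface receptors (Cd2, Cd5 and Cd6). These 10 genes were taken by symbol from the 21358 entries of an FPKM table, and all 10 passed the filter on low values, a mean of at least 0.1 FPKM over the 6 libraries. FPKM counts fragments per kilobase of transcript, scaled to the number of mapped fragments. The libraries came from whole B16-F10 tumors, a melanoma line that makes gp100, grown under the skin of female C57BL/6 mice that were 6 to 8 weeks old. Both groups were irradiated over the whole body and then received adoptive cell transfer (ACT), that is, splenocytes of pmel-1 mice, whose transgenic T cell receptor recognizes gp100, activated with gp100 peptide. The hosts were Thy1.2+ and the transferred cells Thy1.1+. In the ACT + IL-2 group (n = 3 tumors) human interleukin-2 was given for 3 days running in each 9-day cycle, at 0.4 mg/kg a day. In the ACT + NKTR-214 group (n = 3 tumors) NKTR-214, a PEGylated interleukin-2 that releases active cytokine slowly, was given at 0.8 mg/kg once a cycle. All 6 tumors were taken at day 12. RNA levels in whole tumors do not separate host from transferred T cells, and a lower level may mean fewer T cells or less RNA per T cell, which cannot be told apart.

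The T cell receptor itself has almost no tail inside the cell. It is built with dimers of CD3 epsilon with CD3 delta and of CD3 epsilon with CD3 gamma, and with a CD3 zeta homodimer, the product of Cd247, and their tails carry the motifs that Lck phosphorylates and ZAP-70 then binds. CD8, on cytotoxic T cells a dimer of the Cd8a and Cd8b1 products, binds MHC class I, while CD4 binds MHC class II, and both bring Lck to the receptor. The pmel-1 receptor is restricted to class I and is carried by the CD8 T cells of pmel-1 mice. Splenocytes were transferred, and whether CD4+ T cells were among them was not tested here. CD2 is an adhesion receptor for CD48, and CD5 and CD6 are related scavenger receptor family members that modulate receptor signalling.

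Several of the genes are neighbours in the GRCm38 genome (GENCODE annotation). On chromosome 9, Cd3g (chr9:44969572-44980431, minus strand) and Cd3d (chr9:44981786-44987339, plus strand) are divergently transcribed from starts 1355 bases apart, and Cd3e (chr9:44998740-45009627, minus strand) begins 27841 bases from the start of Cd3d. On chromosome 6, Cd8b1 (chr6:71322788-71337494) and Cd8a (chr6:71373427-71379173) lie on the plus strand with starts 50639 bases apart, and Cd4 (chr6:124864692-124888221, minus strand) is elsewhere on that chromosome. Cd5 (chr19:10717116-10739002) and Cd6 (chr19:10789341-10830058) lie on the minus strand of chromosome 19, 91056 bases between starts. Cd247 (chr1:165788681-165877277, plus strand) and Cd2 (chr3:101275899-101287939, minus strand) have no other of these genes beside them.

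RefSeq promoters (GRCm38.p6, from 250 bases before to 50 bases after the start, 300 bases in all) were held for 6 of the 10 genes, namely Cd3e, Cd3d, Cd3g, Cd8a, Cd247 and Cd5. Those of the 4 genes whose RNA moved together across the tumors, and that of Cd247, which departed from them, are shown 5′ to 3′ on the gene's strand. Capitals mark matches on either strand to the E-box CAGNTG or the ETS core GGAAGT.
Cd3e: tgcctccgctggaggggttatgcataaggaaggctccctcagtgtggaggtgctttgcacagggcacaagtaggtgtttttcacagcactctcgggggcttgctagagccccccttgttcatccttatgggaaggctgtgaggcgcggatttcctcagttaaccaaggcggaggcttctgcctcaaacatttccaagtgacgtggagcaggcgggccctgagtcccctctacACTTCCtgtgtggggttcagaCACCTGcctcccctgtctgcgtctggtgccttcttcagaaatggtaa
Cd3d: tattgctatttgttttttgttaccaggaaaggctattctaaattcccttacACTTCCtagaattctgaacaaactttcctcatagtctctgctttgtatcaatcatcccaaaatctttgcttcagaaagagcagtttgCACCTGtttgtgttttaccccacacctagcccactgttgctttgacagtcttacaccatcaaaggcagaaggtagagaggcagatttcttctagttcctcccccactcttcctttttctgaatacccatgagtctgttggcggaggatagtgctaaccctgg
Cd3g: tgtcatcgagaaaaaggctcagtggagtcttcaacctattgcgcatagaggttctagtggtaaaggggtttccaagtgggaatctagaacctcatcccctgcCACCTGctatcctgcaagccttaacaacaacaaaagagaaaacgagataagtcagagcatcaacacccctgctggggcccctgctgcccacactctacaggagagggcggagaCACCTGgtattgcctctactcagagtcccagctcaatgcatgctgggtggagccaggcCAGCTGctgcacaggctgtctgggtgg
Cd8a: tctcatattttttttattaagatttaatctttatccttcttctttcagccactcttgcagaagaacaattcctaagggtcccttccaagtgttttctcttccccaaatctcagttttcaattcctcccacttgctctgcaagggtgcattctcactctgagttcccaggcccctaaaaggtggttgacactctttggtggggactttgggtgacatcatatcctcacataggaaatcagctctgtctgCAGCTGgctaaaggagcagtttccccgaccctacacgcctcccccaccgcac
Cd247: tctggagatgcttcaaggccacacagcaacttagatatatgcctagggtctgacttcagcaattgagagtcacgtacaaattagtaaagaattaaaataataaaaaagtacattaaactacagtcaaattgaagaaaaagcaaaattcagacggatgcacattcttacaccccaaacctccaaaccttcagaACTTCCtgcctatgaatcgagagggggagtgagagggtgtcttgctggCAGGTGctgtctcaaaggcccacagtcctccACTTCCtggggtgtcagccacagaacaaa
The windows are chr9:45009562-45009861 for Cd3e, chr9:44981536-44981835 for Cd3d, chr9:44980382-44980681 for Cd3g, chr6:71373177-71373476 for Cd8a and chr1:165788431-165788730 for Cd247. The E-box letters were found in all 6 promoters and in 51.4% of 32817 mouse promoters of this length. The ETS letters were found in 4 of the 6 (Cd3e, Cd3d, Cd247 and Cd5), against 23.8% of all promoters, and the match in Cd3e starts 18 bases before the transcription start. The RUNX core TGTGGT (16.8% of all promoters) and the TATA box TATAAA (13.6%) were found in 0 of the 6. Cd3d had 1 CpG, Cd247, Cd8a and Cd5 had 3 each, Cd3g had 4 and Cd3e had 8, where the median promoter had 7. A palindromic CAGCTG matches on both strands, and a match to letters is not evidence of a bound site.

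Depth differed little between libraries. Whole read numbers were worked back from the steps of the FPKM values for 13041 of the 14172 genes tested (92.0%, to within 0.25 read), all 10 genes included, which puts the libraries at an estimated 20900000 to 24600000 mapped reads. Each library had 15379 to 16083 genes above 0. No pair of libraries held the same values. Where nothing else is said, groups were compared with limma on log2(FPKM + 1) over all 14172 genes, and adjusted p values are Benjamini-Hochberg values over those genes.

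All 10 genes were higher in the ACT + NKTR-214 tumors (limma, adjusted p under 0.05), where 20.7% of all genes tested were called higher and 8.28% lower. For all 10, every ACT + NKTR-214 tumor was above every ACT + IL-2 tumor, which held for 27.1% of genes tested. The median log2 fold change of the 10 genes was 3.38, against 0.045 over all genes tested. The rise was uneven. Cd3e, Cd3d, Cd3g, Cd8a, Cd8b1 and Cd2 had 14.2-fold to 17.9-fold higher mean FPKM, Cd5 and Cd6 were 9.22-fold and 7.65-fold higher, and Cd247 and Cd4 were 2.97-fold and 2.82-fold higher. The folds depended on ACT + IL-2 replicate 1, without which they were 22.9 for Cd3e, 23.5 for Cd3g, 27.5 for Cd2, 3.33 for Cd247 and 4.61 for Cd4, so that Cd4 then stood above Cd247. Summed over the 10 genes, FPKM ran from 13.6 to 31.5 in the ACT + IL-2 tumors and from 153.4 to 336.3 in the ACT + NKTR-214 tumors. Without sharing of variance between genes, 0 of the 10 passed, with adjusted p from 0.0552 to 0.109, and with every gene in the table fitted 6 passed, the exceptions being Cd247, Cd4, Cd5 and Cd6.

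**Figure D1:**
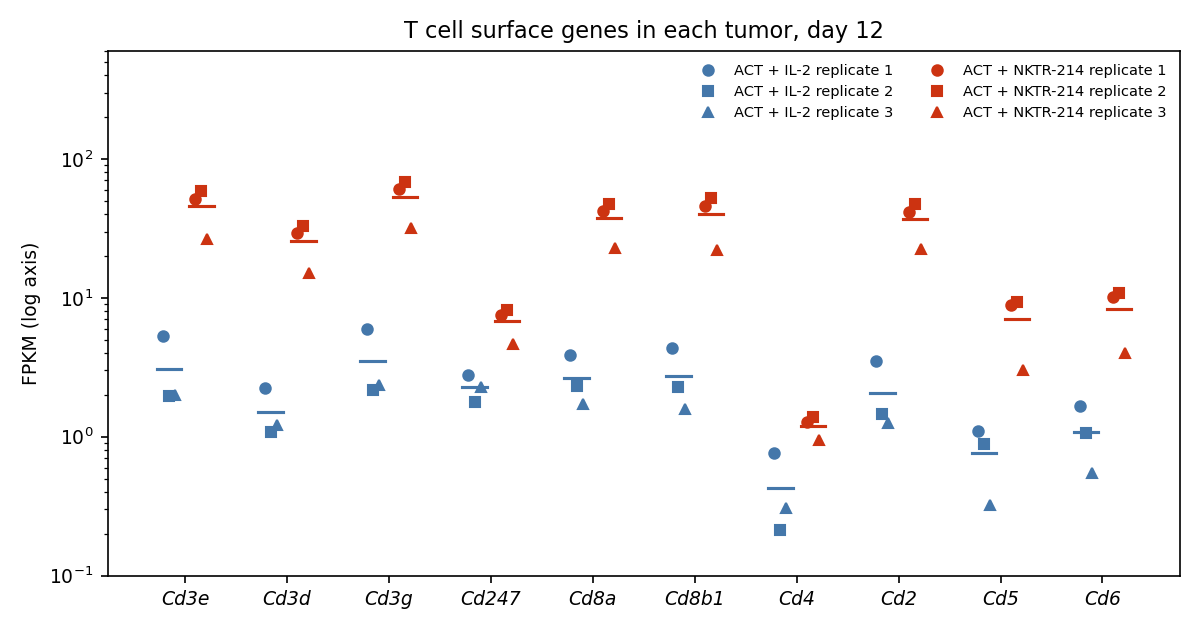
FPKM of the 10 genes in each of the 6 tumors on a log axis, with blue points for ACT + IL-2, red points for ACT + NKTR-214, the marker shape giving the replicate and the short bars giving group means. Red points lie above blue points for every gene, with the narrowest gap at Cd4, where the highest ACT + IL-2 value is 0.758 FPKM and the lowest ACT + NKTR-214 value 0.952 FPKM.

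Cd3e, whose product is in both kinds of CD3 heterodimer, stood, in the order of the replicate numbers used throughout, at 5.30, 1.97 and 1.99 FPKM under ACT + IL-2 and at 51.7, 58.2 and 26.4 FPKM under ACT + NKTR-214. The lowest ACT + NKTR-214 tumor was therefore well above the highest ACT + IL-2 tumor, and within each group the tumors were unequal, with replicate 1 the highest under ACT + IL-2 and replicate 3 the lowest under ACT + NKTR-214. The means were 3.09 ± 1.91 (SD, n = 3) and 45.4 ± 16.8 FPKM (SD, n = 3), a log2 fold change of 3.53 (SE 0.29, limma adjusted p = 3.64e-07). These values rest on 60 to 182 reads in the ACT + IL-2 libraries and 902 to 2044 reads in the ACT + NKTR-214 libraries.

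Cd3d, encoding CD3 delta, was at 2.24, 1.08 and 1.22 FPKM under ACT + IL-2 and at 29.3, 32.9 and 15.2 FPKM under ACT + NKTR-214 (log2 fold change 3.37, SE 0.24, limma adjusted p = 1.11e-07). Cd3g, encoding CD3 gamma, was at 5.9997, 2.17 and 2.37 FPKM against 60.2, 68.4 and 31.9 FPKM (log2 fold change 3.62, SE 0.29, limma adjusted p = 2.54e-07). The high and low tumors were those of Cd3e, and the groups were apart for both genes. Set against Cd3e in the same tumor, the FPKM of Cd3g was 1.10 to 1.19 times that of Cd3e under ACT + IL-2 and 1.16 to 1.21 times under ACT + NKTR-214. Cd3d was 0.422 to 0.613 times Cd3e under ACT + IL-2 and 0.565 to 0.574 times under ACT + NKTR-214. Both ratios overlapped between the groups (log2 difference 0.052 for Cd3g, exact permutation p = 0.3, and 0.12 for Cd3d, p = 0.7, two-sided, n = 3 a group). Differences in these ratios were smaller than the spread between tumors of the ACT + IL-2 group.

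Cd247, encoding CD3 zeta, departed from the other CD3 genes. Its level was 2.78, 1.78 and 2.30 FPKM under ACT + IL-2 and 7.54, 8.14 and 4.65 FPKM under ACT + NKTR-214. The groups were apart, but by less than for Cd3e, with means of 2.28 ± 0.50 and 6.78 ± 1.87 FPKM (SD, n = 3 each) and a log2 fold change of 1.22 (SE 0.19, limma adjusted p = 0.000166). Its ratio to Cd3e was 0.524, 0.900 and 1.15 under ACT + IL-2 and 0.146, 0.140 and 0.176 under ACT + NKTR-214. The ratio was lower in every ACT + NKTR-214 tumor (log2 difference -2.41, exact permutation p = 0.1, the smallest that 3 against 3 tumors can give, and 0.186 after Benjamini-Hochberg adjustment over the 13 ratios compared). In the GENCODE annotation 60.3% of its exon bases overlap exons of Pou2f1, a widely expressed transcription factor gene on the opposite strand, or of Gm16565. Of all 50-base stretches of its transcripts, 55.9% also occur, as written or as the reverse complement, in transcripts of those genes. For Cd3e 3.31% of exon bases overlap another gene, Gm48719, and for Cd3d and Cd3g none do. Pou2f1, looked up after this overlap was seen, was at 2.90, 2.66 and 3.08 FPKM under ACT + IL-2 and at 2.87, 2.90 and 2.57 FPKM under ACT + NKTR-214 (log2 fold change -0.04, SE 0.14, limma adjusted p = 0.880), so its groups overlapped, and it was above Cd247 in each ACT + IL-2 tumor. Whether reads were counted by strand is not given in the sources used here, and the part of this overlap in the Cd247 values was not tested.

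**Figure D2:**
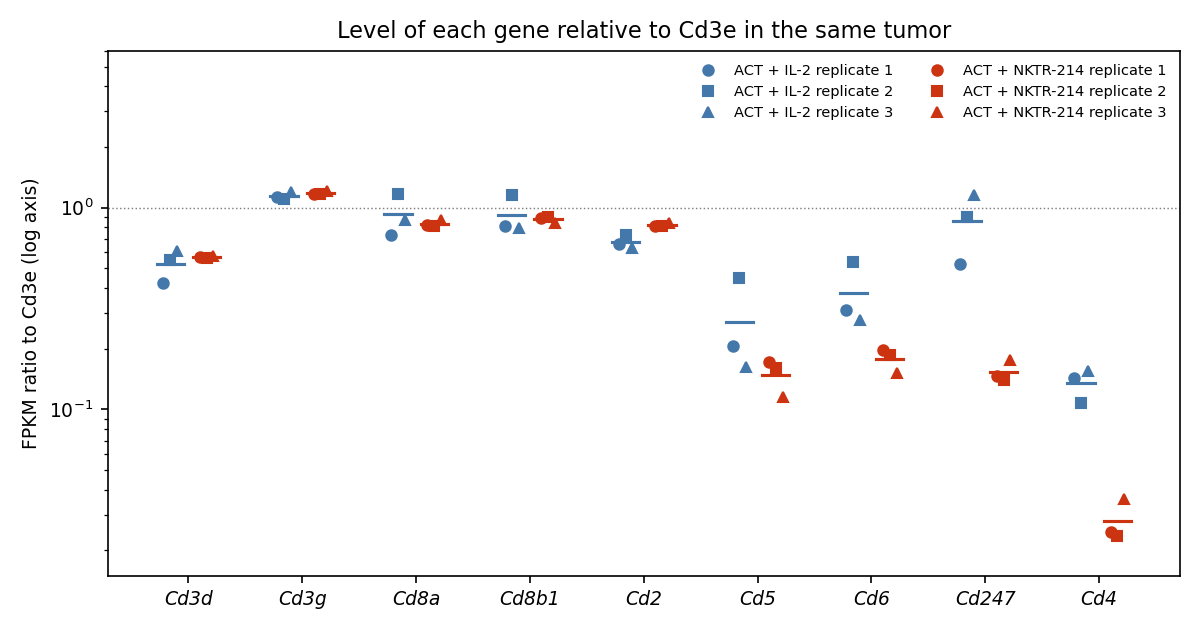
Ratio of each gene's FPKM to that of Cd3e in the same tumor, on a log axis, with colors, shapes and bars for groups, replicates and group means. Cd3d, Cd3g, Cd8a and Cd8b1 overlap between the groups, Cd5 overlaps in part, Cd2 is slightly higher in the ACT + NKTR-214 tumors, and Cd6, Cd247 and Cd4 are lower in all 3 of them.

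Cd8a, the alpha chain found in both forms of CD8, was at 3.89, 2.32 and 1.73 FPKM under ACT + IL-2 and at 42.4, 47.3 and 23.01 FPKM under ACT + NKTR-214. Cd8b1, the beta chain of conventional CD8 T cells, was at 4.32, 2.28 and 1.59 FPKM against 45.9, 52.3 and 22.1 FPKM. Both were far above the ACT + IL-2 range in all 3 ACT + NKTR-214 tumors. The means rose from 2.65 ± 1.12 to 37.6 ± 12.8 FPKM for Cd8a (SD of 3 tumors a group, log2 fold change 3.38, SE 0.25, limma adjusted p = 1.14e-07) and from 2.73 ± 1.42 to 40.1 ± 15.9 FPKM for Cd8b1 (log2 fold change 3.44, SE 0.28, limma adjusted p = 3.76e-07). About 6.28% of the 50-base stretches of Cd8b1 also occur, on either strand, in transcripts of other genes, against 0.081% for Cd8a.

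The alpha and beta chains kept close to equal FPKM in every tumor. The ratio of Cd8a to Cd8b1 was 0.901, 1.02 and 1.09 under ACT + IL-2 and 0.924, 0.904 and 1.04 under ACT + NKTR-214, a log2 difference of -0.07 (exact permutation p = 0.7). Relative to Cd3e, Cd8a was at 0.734, 1.18 and 0.867 under ACT + IL-2 and at 0.821, 0.812 and 0.872 under ACT + NKTR-214 (log2 difference -0.12, exact permutation p = 0.8). Cd8b1 relative to Cd3e ran from 0.795 to 1.16 and from 0.836 to 0.898 (log2 difference -0.06, exact permutation p = 1). CD8 RNA per unit of Cd3e RNA was thus spread more widely between the ACT + IL-2 tumors than between the ACT + NKTR-214 tumors, the highest value belonging to ACT + IL-2 replicate 2. The direction of both differences turned without that tumor.

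Cd4 was the least abundant of the 10 genes per length in every library, with Cd5 close to it in ACT + IL-2 replicate 3. Its level was 0.758, 0.212 and 0.309 FPKM under ACT + IL-2 and 1.27, 1.38 and 0.952 FPKM under ACT + NKTR-214. The ACT + NKTR-214 tumors were all higher, with ACT + IL-2 replicate 1 the nearest to them. The means were 0.426 ± 0.292 and 1.20 ± 0.22 FPKM (SD, n = 3 each), and the log2 fold change of FPKM + 1 was 0.64 (SE 0.14, limma adjusted p = 0.00234). Because Cd4 lies near or below the pseudocount, that scale understates its change, and with a pseudocount of 0.1 the log2 fold change was 1.43. Only 56, 15 and 20 reads stood behind the ACT + IL-2 values and 97, 104 and 70 reads behind the ACT + NKTR-214 values. The 95% exact Poisson interval for ACT + IL-2 replicate 2 ran from 0.118 to 0.349 FPKM, and for ACT + NKTR-214 replicate 3 from 0.742 to 1.20 FPKM, which cover counting error only.

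The CD8 to CD4 balance was taken as the ratio of Cd8a to Cd4 FPKM in the same tumor, a ratio of RNA and not of cells. It was 5.13, 10.96 and 5.60 under ACT + IL-2 and 33.4, 34.3 and 24.2 under ACT + NKTR-214. Every ACT + NKTR-214 tumor was above every ACT + IL-2 tumor. The geometric mean was 4.45-fold higher under ACT + NKTR-214 (log2 difference 2.15, exact permutation p = 0.1, adjusted p = 0.186 over 13 ratios, where 0.1 is the smallest p possible). With Cd8b1 in place of Cd8a the ratios were 5.69, 10.8 and 5.13 against 36.2, 38.0 and 23.2, a 4.66-fold difference (log2 difference 2.22, exact permutation p = 0.1). On a log scale, the widest counting interval of the Cd8a to Cd4 ratio was that of ACT + IL-2 replicate 2, from 6.46 to 20.03 (95%, exact). It overlapped that of ACT + NKTR-214 replicate 3, from 19.0 to 31.2, at its upper end, while the intervals of the other ACT + IL-2 tumors ended at 6.96 and 9.51.

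**Figure D3:**
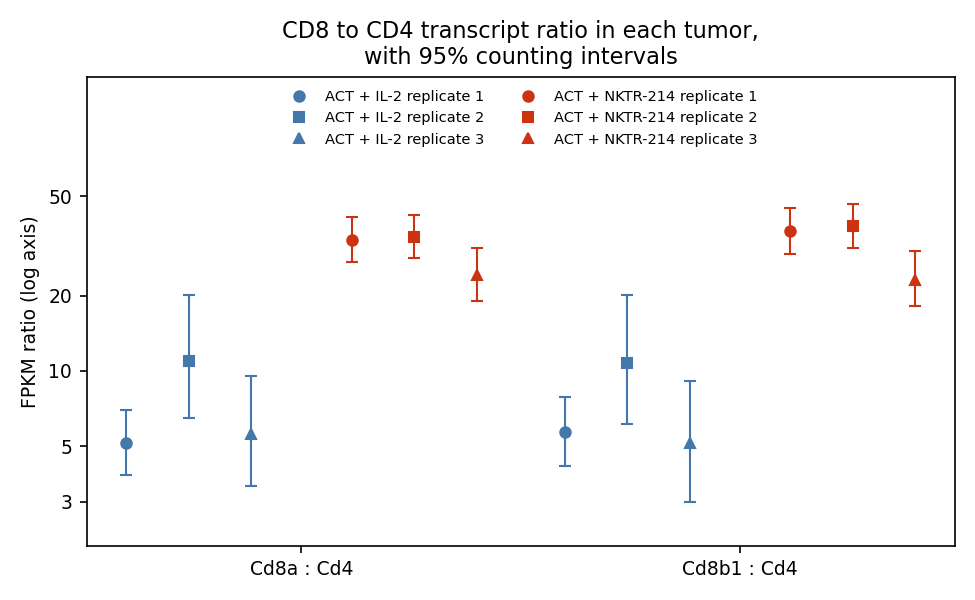
Ratio of Cd8a to Cd4 and of Cd8b1 to Cd4 FPKM in each tumor on a log axis, with bars for the 95% exact counting interval of that library. All red points (ACT + NKTR-214) lie above all blue points (ACT + IL-2), and the long bar of ACT + IL-2 replicate 2, which has 15 Cd4 reads, reaches 20.03 for Cd8a and 20.2 for Cd8b1.

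Read from the side of Cd4, its ratio to Cd3e was 0.143, 0.107 and 0.155 under ACT + IL-2 and 0.0246, 0.0237 and 0.0361 under ACT + NKTR-214. Cd4 RNA per unit of Cd3e RNA was thus lower in all 3 ACT + NKTR-214 tumors (log2 difference -2.28, exact permutation p = 0.1, adjusted p = 0.186), although Cd4 itself was higher there. Of 3 other genes of the CD4 lineage, 1 was called higher and 0 lower, with a median log2 fold change of 0.38, against 0.045 over all genes tested. Cd40lg, the CD40 ligand of helper T cells, was called (log2 fold change 0.38, limma adjusted p = 0.0117) on 3, 0 and 0 reads against 14, 14 and 4 reads, a call lost without ACT + IL-2 replicate 2 (limma adjusted p = 0.0882), without trend (0.0638) and without a filter on low values (0.125). At 0 to 0.459 FPKM Cd40lg lies below the pseudocount, so its 0.38, which is also the median of the 3 genes, understates its change. With a pseudocount of 0.1 its log2 fold change was 1.73. Zbtb7b, the regulator that commits thymocytes to the CD4 lineage, was at 12.0 to 17.1 FPKM under ACT + IL-2 and 19.1 to 20.9 FPKM under ACT + NKTR-214 and did not pass (limma adjusted p = 0.0639), but it passed at a common 75th percentile (0.0182), under quantile normalization (0.0211) and without ACT + IL-2 replicate 1 (0.0278). Under ACT + IL-2 the mean of Zbtb7b, 15.2 FPKM, was above that of Cd3e (3.09) and that of Cd4 (0.426). Under ACT + NKTR-214 its mean of 20.25 FPKM was below that of Cd3e (45.4) and above that of Cd4 (1.20). The part of cells other than T cells in the Zbtb7b values was not tested. Foxp3, the regulator of regulatory T cells, was at 2.46, 2.12 and 2.06 FPKM under ACT + IL-2 and at 2.18, 2.44 and 2.00 FPKM under ACT + NKTR-214, so the groups overlapped (log2 fold change -0.00, SE 0.14, limma adjusted p = 0.996). The 95% interval of that log2 fold change ran from -0.29 to 0.29, and under quantile normalization Foxp3 was called lower (log2 fold change -0.29, limma adjusted p = 0.0303). Exons of Foxp3 share 31.5% of their bases with neighbouring genes, among them Ppp1r3f and Ccdc22, and the part of these in its values was not tested. Runx3, the regulator of the CD8 lineage, rose from 1.65 ± 0.67 to 10.7 ± 2.0 FPKM (SD of 3 tumors a group, log2 fold change 2.16, limma adjusted p = 8.70e-07).

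Cd2 followed the CD3 and CD8 genes closely. It was at 3.51, 1.45 and 1.25 FPKM under ACT + IL-2 and at 41.8, 47.5 and 22.3 FPKM under ACT + NKTR-214, with the groups wide apart (log2 fold change 3.64, SE 0.27, limma adjusted p = 1.45e-07). Its ratio to Cd3e was slightly higher in each ACT + NKTR-214 tumor, at 0.808, 0.815 and 0.844 against 0.663, 0.735 and 0.628 (log2 difference 0.29, exact permutation p = 0.1, adjusted p = 0.186). Cd5 was at 1.09, 0.885 and 0.323 FPKM under ACT + IL-2 and 8.87, 9.30 and 3.03 FPKM under ACT + NKTR-214. Cd6 was at 1.66, 1.06 and 0.551 FPKM against 10.2, 10.8 and 3.98 FPKM. For both genes replicate 3 was the lowest tumor of each group, and the groups did not overlap. The log2 fold changes were 2.10 for Cd5 (SE 0.28, limma adjusted p = 4.09e-05) and 2.09 for Cd6 (SE 0.27, limma adjusted p = 3.16e-05), and that of Cd5 was 3.17 when fitted on the whole reads. Relative to Cd3e, Cd6 was lower in every ACT + NKTR-214 tumor, at 0.197, 0.186 and 0.151 against 0.312, 0.540 and 0.276 (log2 difference -1.02, exact permutation p = 0.1, adjusted p = 0.186). Cd5 relative to Cd3e overlapped between groups, with 0.172, 0.160 and 0.115 under ACT + NKTR-214 and 0.206, 0.449 and 0.162 under ACT + IL-2 (log2 difference -0.75, exact permutation p = 0.2, and -0.32 without ACT + IL-2 replicate 2).

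The tumors of a group were ordered in much the same way by all of these genes. Under ACT + NKTR-214, replicate 2 was the highest, replicate 1 next and replicate 3 the lowest for all 10 genes. Under ACT + IL-2, replicate 1 was the highest for all 10, while replicate 2 was above replicate 3 for 5 of them (Cd8a, Cd8b1, Cd2, Cd5 and Cd6) and below it for the other 5 (Cd3e, Cd3d, Cd3g, Cd247 and Cd4). Ptprc, the pan-leukocyte gene encoding CD45, was at 17.7, 8.79 and 7.57 FPKM under ACT + IL-2 and 66.5, 74.6 and 40.5 FPKM under ACT + NKTR-214, and replicate 1 of the first group and replicate 2 of the second were again the highest. Cd3e per unit of Ptprc was 0.299, 0.224 and 0.263 under ACT + IL-2 and 0.777, 0.781 and 0.652 under ACT + NKTR-214. Cd3e was thus higher relative to Ptprc in all 3 ACT + NKTR-214 tumors (2.82-fold, log2 difference 1.496, exact permutation p = 0.1, adjusted p = 0.186).

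The kinases and adaptors next to the receptor were higher as well. Of 17 genes of proximal T cell receptor signalling, 15 were called higher and 0 lower, with a median log2 fold change of 2.40. Zap70, the kinase that binds phosphorylated CD3 tails, went from 1.15 ± 0.35 to 17.2 ± 5.6 FPKM (SD of 3 tumors a group, log2 fold change 3.04, limma adjusted p = 8.97e-08). Lck, the kinase carried by CD4 and CD8, went from 3.79 ± 1.09 to 38.8 ± 11.9 FPKM (log2 fold change 3.03, limma adjusted p = 1.03e-07), and Lat, the adaptor phosphorylated by ZAP-70, from 2.50 ± 1.20 to 35.4 ± 11.2 FPKM (log2 fold change 3.38, limma adjusted p = 1.03e-07). Fyn, a kinase that many other cells also use, had the smallest rise of the called genes, 1.89-fold. Plcg1, a widely expressed phospholipase, did not pass (log2 fold change 0.27, limma adjusted p = 0.208), nor did Trat1, a receptor-associated adaptor at 0 to 0.417 FPKM (limma adjusted p = 0.660). All 5 other T cell surface genes listed were called higher, with a median log2 fold change of 2.55. They were Thy1, Cd28, Cd27, Cd96 and Icos, and Thy1 was the most abundant, at 10.7 to 28.6 FPKM against 106.5 to 192.8 FPKM. The constant genes of the receptor's own alpha, beta, gamma and delta chains were not analysed here.

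Most ligands of these receptors were higher too. Of 9 listed, 8 were tested, 7 were called higher and 0 lower, with a median log2 fold change of 1.27. Cd48, the ligand of CD2, rose from 6.82 ± 3.09 to 36.5 ± 11.2 FPKM (SD of 3 tumors a group, log2 fold change 2.28, limma adjusted p = 5.91e-06), and Alcam, a ligand of CD6, from 1.77 ± 0.39 to 4.33 ± 0.71 FPKM (log2 fold change 0.94, limma adjusted p = 0.00035). The class II genes H2-Aa, H2-Ab1 and H2-Eb1, which make ligands of CD4, were 2.49-fold to 2.71-fold higher, and the class I genes H2-K1 and H2-D1, ligands of CD8, were 2.23-fold and 2.13-fold higher. Class I genes are near copies of each other, so how their reads were split is uncertain. B2m, the class I light chain, was at 1249 to 1787 FPKM against 2162 to 2467 FPKM and did not pass (limma adjusted p = 0.174), but it passed at a common 75th percentile (0.0407), with a minimum mean of 1 FPKM (0.0317) and without trend (0.00797). Without a filter on low values 2 of the ligands were called. Cdcp1, another ligand of CD6, was too low to be tested.

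Several of the 10 genes are also used outside T cells, and markers of those cells were read beside them. Of 7 natural killer cell markers, 6 were tested and 4 were called higher (Klrb1c, Klra7, Klre1 and Klri2), with a median log2 fold change of 0.73 and a summed level of 1.43 to 3.65 FPKM against 9.78 to 21.1 FPKM. Ncr1, the most specific of them, was at 0.915, 0.536 and 0.294 FPKM under ACT + IL-2 and 0.553, 1.15 and 0.316 FPKM under ACT + NKTR-214 and did not differ detectably (log2 fold change 0.07, SE 0.17, limma adjusted p = 0.799). Klra8 did not pass either (log2 fold change 0.01, limma adjusted p = 0.977), and Klra4, too low to be tested, was at 0.086 to 0.224 FPKM under ACT + IL-2 and at 0 to 0.042 FPKM under ACT + NKTR-214. The Klr genes are a family of close relatives whose reads may be shared, and activated CD8 T cells can express some of them. The B cell receptor genes Cd79a and Cd79b did not pass, with Cd79a at 0.158 to 0.540 FPKM under ACT + IL-2 and 0.155 to 0.571 FPKM under ACT + NKTR-214 (log2 fold change -0.02, limma adjusted p = 0.913) and Cd79b at 0.310 to 1.67 FPKM against 0.444 to 1.36 FPKM (log2 fold change 0.04, limma adjusted p = 0.916, but 0.36 and 0.0207 without ACT + IL-2 replicate 1). B1-type B cells also carry CD5. Of 6 markers of type 1 and plasmacytoid dendritic cells, which can carry Cd8a in lymphoid tissue, 4 were tested and all 4 were called higher (Xcr1, Clec9a, Batf3 and Flt3, 2.34-fold to 3.14-fold), with a summed level of 3.68 to 7.02 FPKM against 10.8 to 16.6 FPKM. Without ACT + IL-2 replicate 2 only 1 of them was called, and under quantile normalization 2. Siglech and Ccr9, which mark plasmacytoid cells, stayed at or below 0.101 FPKM. All 6 macrophage and monocyte markers were called higher, with a median log2 fold change of 1.86 and a summed level of 203.5 to 558.6 FPKM against 1039 to 1841 FPKM. Adgre1 overlapped between the groups and lost its call without ACT + IL-2 replicate 2 (limma adjusted p = 0.184), without ACT + IL-2 replicate 3 (0.0904), without trend (0.0529), without a filter on low values (0.279), without moderation (0.269) and under either scaling, and 4 of the 6 were called without ACT + IL-2 replicate 2 and 1 without a filter on low values. These myeloid genes moved in the same direction as Cd4 and Cd8a, and their part in those values was not tested. Of 6 melanoma markers 0 were called higher and 4 lower, with a median log2 fold change of -0.80 and a summed level of 5314 to 6813 FPKM against 2644 to 3725 FPKM. Of these, 1 was called lower without ACT + IL-2 replicate 3, without ACT + NKTR-214 replicate 1 or without ACT + NKTR-214 replicate 2, and 6 under either scaling. Without a filter on low values or without moderation, 0 of the melanoma markers were called lower.

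**Figure D4:**
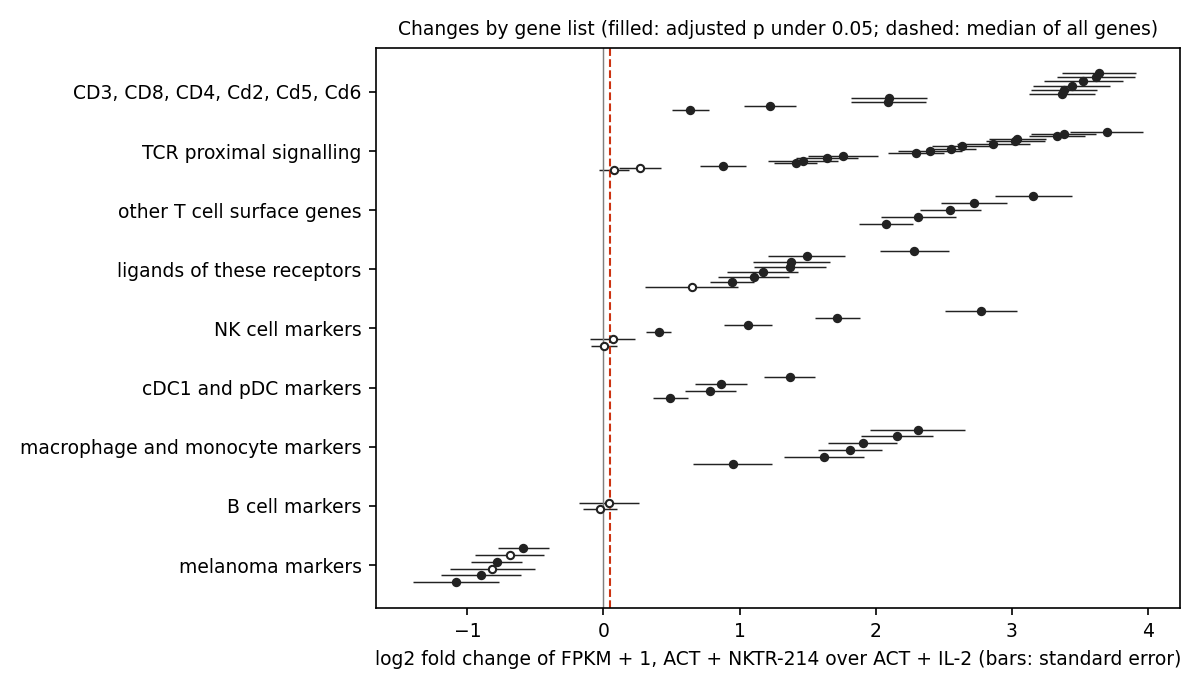
Log2 fold change of FPKM + 1 (ACT + NKTR-214 over ACT + IL-2, horizontal axis) for each tested gene of the lists named on the left, with bars for the standard error, filled points for genes with an adjusted p under 0.05 and a dashed line at the median of all genes tested, 0.045. Of the 10 receptor genes in the top line, Cd4 at 0.64 and Cd247 at 1.22 lie lowest, among the values of ligand and dendritic cell genes, while the CD3, CD8 and Cd2 genes lie between 3.37 and 3.64.

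Profiles most like that of Cd3e were sought among genes with a mean of at least 1 FPKM, as the smallest root mean square difference between centred log2(FPKM + 1) values over the 6 libraries. Outside the 10 genes the nearest were Ptprcap (0.122 log2 units), Gimap3 (0.134), Lat (0.139), Klrd1 (0.147) and Ms4a4b (0.149). Within the 10, Cd3g (0.056) and Cd2 (0.085) were nearer still, Cd8b1 (0.134), Cd8a (0.171) and Cd3d (0.182) were about as near, and Cd6 (0.749), Cd5 (0.770), Cd247 (1.19) and Cd4 (1.48) were far. Ptprcap, which encodes a lymphocyte phosphoprotein that associates with CD45, was at 1.81 to 4.41 FPKM against 28.1 to 64.0 FPKM. Klrd1 encodes CD94, a lectin of natural killer cells and of activated CD8 T cells, and was at 0.904 to 2.65 FPKM against 17.0 to 40.6 FPKM.

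By the same measure the genes nearest to Cd4 were Irf2 (0.027 log2 units), Tspo (0.037), Lamp1 (0.044), Nt5c (0.046) and Tmem2 (0.049). Cd4 lies near or below the pseudocount, which narrows its range on this scale, so these are abundant genes with a small change in log2(FPKM + 1), and the list is no evidence of a shared profile. Irf2, an interferon regulatory factor, was at 11.2 to 16.2 FPKM against 19.0 to 22.99 FPKM. The pseudocount narrows the ranges of Cd5 and Cd6 as well, so their distances from Cd3e are set by it in part. Their log2 differences relative to Cd3e were -0.75 and -1.02 without a pseudocount, and -1.43 for both with a pseudocount of 1. For Cd247 that difference was -2.41 without a pseudocount and -2.30 with it.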

How the data were processed

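RNA from 6 whole tumors was sequenced as 50-base single-end reads. Mapping to GRCm38 used HISAT2 2.0.4 and counting per gene used HTSeq, and the authors deposited the resulting linear FPKM of each tumor. The annotation and the use of strand are not given in the sources used here. Values were transformed to log2(FPKM + 1). Genes averaging 0.1 FPKM or more were fitted with limma 3.58.1 (eBayes with trend, R 4.3.3) without a block, and p values were adjusted by Benjamini-Hochberg with a threshold of 0.05. Ratios of 2 genes in a tumor were compared by exact two-sided permutation tests on log2 values without a pseudocount (NumPy 2.4.6), adjusted over 13 ratios. Samples were grouped by their labels. The limma p values set the difference between groups against the variation between tumors, with variances shared between genes. The limma fit and the recovery of reads were first tested on simulated data. Whole reads recovered from FPKM steps gave Poisson and binomial counting intervals (SciPy 1.17.1), and a limma voom fit chosen after seeing the data. The gene names of the text are the 10 genes, the lists' genes a sentence needs, and the 5 profiles most like Cd3e and Cd4. These genes and lists were chosen with earlier results of these data known. The alternatives tried were the pseudocount, the filter, scaling, moderation, a replicate block and leaving out each tumor. A listed gene is not reported here.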

Additional observations from a re-analysis of the deposited data

How the results depend on the processing

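With a minimum mean of 1 FPKM, 9 of the 10 genes were called higher, since Cd4 was not tested. Without a minimum, 6 were called, with adjusted p of 0.0506 for Cd247, 0.0905 for Cd4, 0.0595 for Cd5 and 0.0548 for Cd6, and 1193 genes in all were called higher and 395 lower. Without moderation 0 were called, and 101 genes in all were called higher and 27 lower. The other alternatives called all 10, including each fit without a tumor, where the largest adjusted p was 0.049, for Cd4 without ACT + IL-2 replicate 2. Log2 fold changes of Cd4 ran from 0.41 under quantile normalization to 1.65 for voom on whole reads. The balance of all calls moved with scaling, from 2940 higher and 1173 lower (71.5% higher) to 3364 and 3497 at a common 75th percentile (49.0% higher) and 2691 and 4525 under quantile normalization (37.3% higher). Over the fits leaving out a tumor, 2004 to 3480 genes were higher and 635 to 2003 lower, 635 without ACT + IL-2 replicate 3, 682 without ACT + NKTR-214 replicate 2 and 2003 without ACT + IL-2 replicate 2. The log2 difference of the Cd8a to Cd4 ratio ran from 1.95 to 2.74. Leaving out each tumor, the log2 difference of Cd8a to Cd3e ran from -0.28 to 0.065, of Cd8b1 to Cd3e from -0.15 to 0.12 (both turned positive without ACT + IL-2 replicate 2) and of Cd3d to Cd3e from -0.029, without ACT + IL-2 replicate 1, to 0.24. With a pseudocount of 1 the last was -0.15. The cause of these changes was not tested.

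Replicate numbers stand for different mice, and same-numbered tumors deviated with correlations of -0.21, -0.07 and 0.40. With a replicate block 10 of the 10 genes, and 3090 genes higher and 1227 lower in all, were called, and the Cd8a to Cd4 difference was 2.15 with an exact sign-flip p of 0.25, the smallest possible. With 15 to 56 Cd4 reads in the ACT + IL-2 libraries, depth limits the ratios to Cd4 there.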
